A study of Mus musculus with 6 samples.

Results

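The endoplasmic reticulum chaperones and targets of the transcription factor XBP1 were followed in organoids of the mouse submandibular salivary gland (mSGOs), which form in Matrigel when single cells of the dissociated gland divide. The group was given by name and holds 10 genes (*Hspa5*, *Hsp90b1*, *Xbp1*, *Dnajb9*, *Sdf2l1*, *Pdia4*, *Creld2*, *Manf*, *Calr* and *Herpud1*) of the 47643 gene IDs counted. All 10 passed the filter on low counts, as did 15792 genes in all. The mSGOs came from female C57BL/6 mice aged 8 to 12 weeks and were neither irradiated nor treated. Both groups grew in WRY medium with EGF, FGF2, N2, insulin, dexamethasone, the kinase inhibitor Y27632 and media conditioned by Wnt3a and R-spondin1. Each of 3 mice gave 1 library at day 5 and 1 at day 7, so there were 6 libraries.

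Proteins that a cell secretes or places in its membranes are folded in the endoplasmic reticulum. Chaperones such as BiP bind unfolded chains there, and disulfide isomerases join the cysteines that belong together. When unfolded protein builds up, the sensors IRE1, ATF6 and PERK start the unfolded protein response. IRE1 splices the *Xbp1* mRNA, so that the active factor XBP1 is made, and XBP1 and cleaved ATF6 switch on the chaperone genes. PERK slows translation and raises ATF4, a factor with a different set of targets. Salivary glands are built for secretion, and acinar cells in particular hold a large endoplasmic reticulum. The comparison of day 5 with day 7 asks whether these genes changed while the organoids grew.

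Counts came from the 3′ ends of polyadenylated transcripts, so that spliced and unspliced *Xbp1* mRNA were counted together. Levels are given as CPM, counts per 1000000 counts of the scaled library, and were compared between libraries for each gene, never between genes. The libraries held 1918198 to 2837397 counts in genes, and 3 counts, the most that a count of 0 allows, were 1.06 to 1.56 CPM. This value and the summed levels of cell type markers used library totals without the scaling. All 10 epithelial markers were detected in every group. Their summed level, 14660 to 18920 CPM on day 5 and 12160 to 15310 CPM on day 7, came mainly from the counts of *Krt5* and *Krt14*. Of the 10, the duct keratin *Krt19* (log2 fold change 1.78) and the tight junction genes *Cldn4* (1.89) and *Cldn3* (1.41) were higher at day 7. *Krt8* (-0.65) was lower. These calls use the threshold set for all genes, which 12.0% of all genes tested passed. The part of these markers in the values of the chaperones was not tested. The day 7 libraries differed more from each other than the day 5 libraries. Over the 8151 genes whose mean reached 10 CPM, the highest mouse stood a median of 1.23 times above the lowest at day 5 and 1.56 times at day 7. At day 7, mouse 3 had the highest level for 42.7% of these genes and the lowest for 39.0%. Calls among the 10 genes that this library decides are given with and without it. The same holds for genes named by smallest p in the further lists.

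The promoters are shown first, since these genes are known as a group through a shared control element. The endoplasmic reticulum stress element is written CCAAT, any 9 bases, then CCACG. A second form is ATTGG, 1 base, then CCACG. Promoter windows of 300 bases, from 250 before to 50 after the RefSeq transcription start, were found for 9 of the 10 genes in a RefSeq table of GRCm38.p6, and each matched GRCm39 exactly at 1 place, whose coordinates are given. *Manf* had no window. Both elements were searched on both strands, and no window held both. The 250 bases before the start are printed 5′ to 3′ for the 5 genes whose window held an element, with the fixed bases of each element in capitals (CGTGG and ATTGG mark a stress element read from the other strand).
Hspa5 upstream: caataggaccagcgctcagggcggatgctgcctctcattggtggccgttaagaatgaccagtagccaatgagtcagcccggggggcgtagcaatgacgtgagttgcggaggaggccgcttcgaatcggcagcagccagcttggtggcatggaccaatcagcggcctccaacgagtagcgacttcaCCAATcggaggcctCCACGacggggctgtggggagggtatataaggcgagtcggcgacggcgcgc
Hsp90b1 upstream: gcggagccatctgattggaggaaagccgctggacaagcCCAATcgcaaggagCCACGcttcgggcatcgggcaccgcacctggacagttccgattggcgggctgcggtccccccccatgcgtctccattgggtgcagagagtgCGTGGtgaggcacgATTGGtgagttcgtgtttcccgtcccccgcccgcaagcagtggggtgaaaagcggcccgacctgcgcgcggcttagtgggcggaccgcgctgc
Creld2 upstream: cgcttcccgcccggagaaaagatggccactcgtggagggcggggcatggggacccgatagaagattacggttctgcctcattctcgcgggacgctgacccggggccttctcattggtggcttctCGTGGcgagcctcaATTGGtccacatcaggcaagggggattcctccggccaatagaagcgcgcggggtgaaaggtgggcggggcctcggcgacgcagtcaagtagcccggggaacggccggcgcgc
Calr upstream: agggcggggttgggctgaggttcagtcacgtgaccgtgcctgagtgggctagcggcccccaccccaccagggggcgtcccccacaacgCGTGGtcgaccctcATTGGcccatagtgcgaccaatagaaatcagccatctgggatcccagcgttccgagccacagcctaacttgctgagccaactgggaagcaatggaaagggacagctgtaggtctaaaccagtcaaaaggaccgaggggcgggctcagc
Herpud1 upstream: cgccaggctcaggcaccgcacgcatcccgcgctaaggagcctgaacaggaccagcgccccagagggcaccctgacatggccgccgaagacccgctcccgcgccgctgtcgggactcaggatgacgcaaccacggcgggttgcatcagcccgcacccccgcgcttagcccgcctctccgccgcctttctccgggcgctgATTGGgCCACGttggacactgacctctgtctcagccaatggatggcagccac

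These stretches are chr2:34661852-34662101, plus strand, for *Hspa5*, chr10:86541309-86541558, minus strand, for *Hsp90b1*, and chr15:88703599-88703848, plus strand, for *Creld2*. The stretch of *Calr* is chr8:85573561-85573810, minus strand, and that of *Herpud1* is chr8:95112807-95113056, plus strand, all in GRCm39. Counted with the last base before the start as -1, the element of *Hspa5* lay at -65 to -47. *Hsp90b1* held 2, at -212 to -194 and, on the other strand, at -107 to -89. The elements of *Creld2* (-126 to -108) and *Calr* (-162 to -144) were also on the other strand. *Herpud1* held the second form at -52 to -42. The stress element stood in 4 of the 9 windows and in 37 of 27025 genes with a window (0.137%), and the second form in 1 of the 9 and in 12 genes (0.0444%). The core TGACGTGG, at which XBP1 is known to bind, was in none of the 9 windows and in 0.714% of all genes. The box CCAAT, which is also part of the stress element, was in 8 of the 9 and in 41.1% of all genes. A match describes these letters only, and the libraries did not measure binding.

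**Figure D1:**
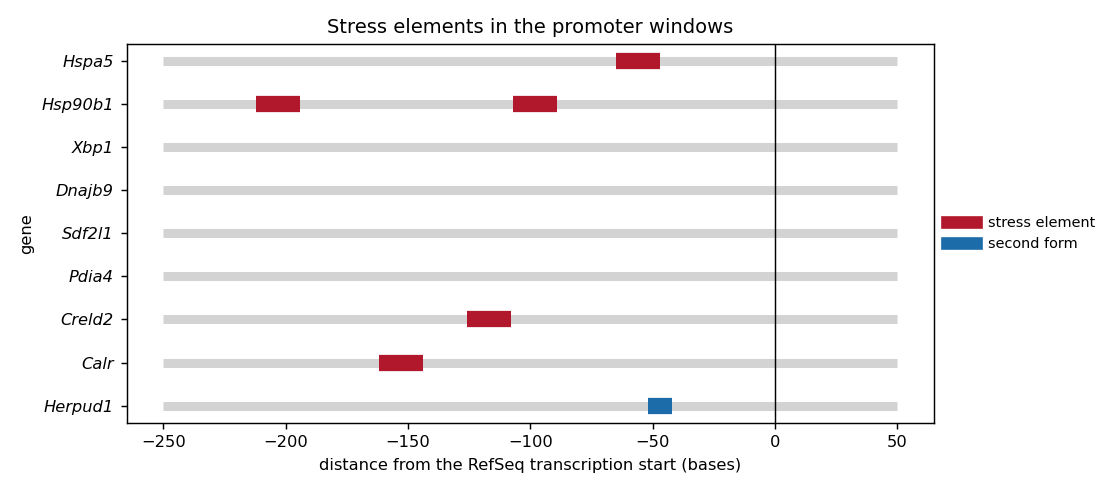
The 9 promoter windows are drawn from 250 bases before to 50 after the RefSeq start (x axis, bases, with the start at 0). Red blocks are stress elements and the blue block is the second form. The elements of *Hspa5*, *Hsp90b1*, *Creld2*, *Calr* and *Herpud1* all lay before the start, and the windows of *Xbp1*, *Dnajb9*, *Sdf2l1* and *Pdia4* held none.

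Between day 5 and day 7 none of the 10 genes passed the threshold, and the 3 with the smallest p, *Dnajb9*, *Pdia4* and *Xbp1*, had higher means at day 7. A gene was called changed with an adjusted p under 0.05 in the quasi-likelihood test of edgeR and an absolute log2 fold change over 0.6. By this threshold 0 of the 10 genes changed, whereas 12.0% of all genes tested did (7.22% higher and 4.82% lower at day 7). These 3 genes had an unadjusted p under 0.05, as did 25.8% of all genes. The median log2 fold change was -0.05 over the 10 genes and -0.01 over all genes tested. Single log2 fold changes ran from -0.66 for *Sdf2l1* to 0.98 for *Dnajb9*. The day 7 libraries all lay above the day 5 libraries for *Dnajb9*, *Pdia4* and *Herpud1* and all below for *Sdf2l1*. Such a separation was seen upwards in 15.4% and downwards in 15.5% of all genes.

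The libraries of a day are separate mice, and the same 3 mice gave both days. With the mouse as a replicate block, *Dnajb9* and *Pdia4* passed the threshold, 2 of the 10 against 14.8% of all genes. Their log2 fold changes were not larger with the block (0.956 ± 0.333 and 0.631 ± 0.235, SE) than without it (0.983 ± 0.329 and 0.663 ± 0.235, SE). These calls therefore do not show that pairing by mouse sharpened the estimates. The number of genes past the threshold also depended on single libraries. Without day 7 mouse 3, *Xbp1*, *Dnajb9* and *Calr* passed (16.7% of all genes), and without day 7 mouse 1, *Pdia4* alone passed (16.1%). With no filter on low counts, *Dnajb9* and *Pdia4* passed (12.9%).

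**Figure D2:**
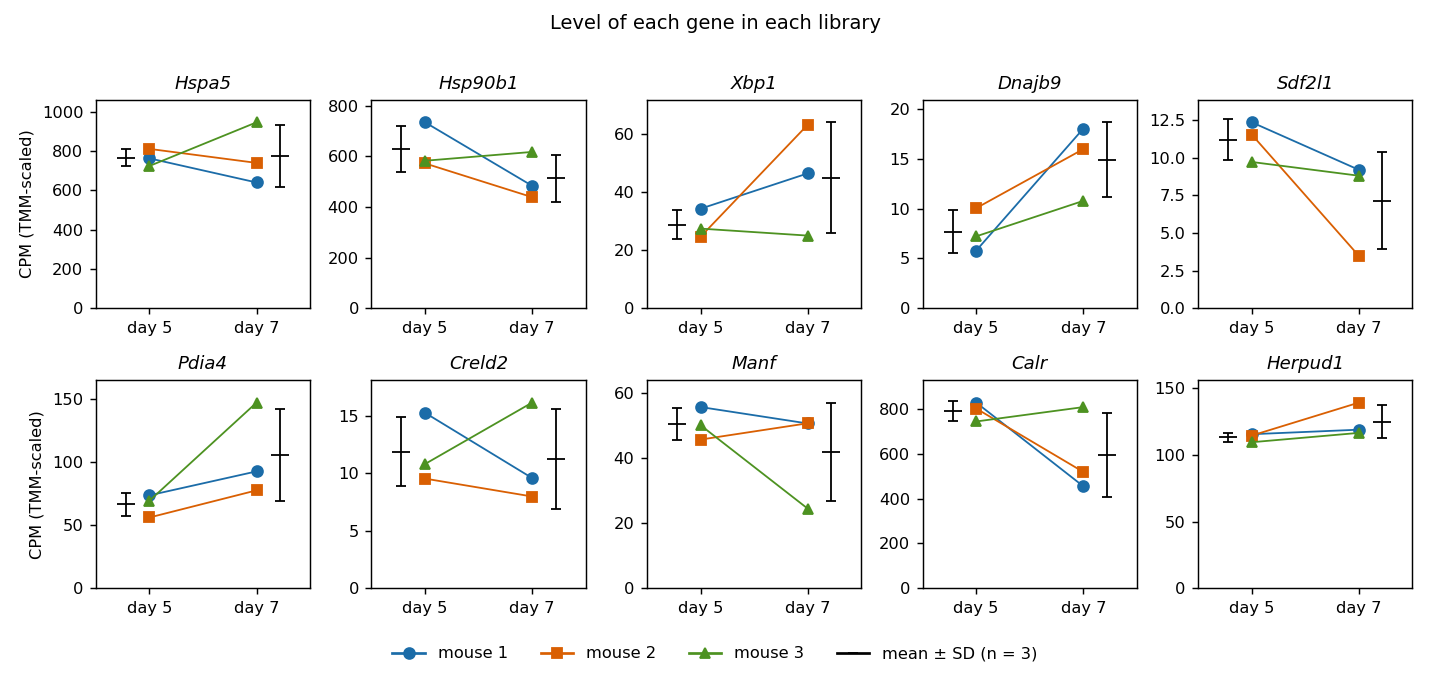
Each panel plots the level of 1 gene in CPM (y axis, from 0) at day 5 and day 7 for mouse 1 (circles), mouse 2 (squares) and mouse 3 (triangles), with the mean ± SD of 3 mice in black. The lines of the mice cross in most panels, and all 3 run upwards in those of *Dnajb9*, *Pdia4* and *Herpud1*.

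Of the chaperones *Hspa5*, *Hsp90b1* and *Calr* none passed the threshold. *Hspa5* (chr2:34661982-34668880) encodes BiP, the Hsp70 chaperone of the endoplasmic reticulum, which also holds the stress sensors inactive. Its level was 762.2, 810.4 and 723.5 CPM at day 5 in mice 1, 2 and 3, and 639.4, 739.1 and 945.8 CPM at day 7. The days overlapped, since *Hspa5* was below its day 5 level in mice 1 and 2 and above it in mouse 3. The mean was 765 ± 43.5 CPM at day 5 and 775 ± 156 CPM at day 7 (SD, n = 3). The log2 fold change of *Hspa5* was 0.02 ± 0.19 (SE, 95% interval -0.39 to 0.42, edgeR adjusted p = 0.990). The interval holds no change as large as 0.6 in either direction, and the sign of this small value turned with the scaling.

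*Hsp90b1* (chr10:86526073-86541446) encodes GRP94, the Hsp90 chaperone of the compartment, which folds integrins and Toll-like receptors. It stood at 735.0, 572.4 and 582.9 CPM at day 5 and at 483.7, 438.8 and 617.8 CPM at day 7. Mice 1 and 2 were lower at day 7 and mouse 3 was slightly higher. On the log2 scale *Hsp90b1* was at -0.30 ± 0.20 (SE, 95% interval -0.71 to 0.12, edgeR adjusted p = 0.365). With single libraries left out it ran from -0.18 (without day 5 mouse 1) to -0.45 (without day 7 mouse 3, edgeR adjusted p = 0.0499). *Hsp90b1* shares exon positions on its own strand with the predicted loci Gm15344 and Gm54730.

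*Calr* (chr8:85567946-85573667) encodes calreticulin, which binds calcium and the sugar chains of new glycoproteins. It measured 827.8, 801.3 and 743.6 CPM at day 5. At day 7 it was at 454.9 and 518.7 CPM in mice 1 and 2 and at 807.7 CPM in mouse 3. Mice 1 and 2 thus lay below every day 5 library, whereas mouse 3 lay within the day 5 range. The log2 fold change of *Calr* was -0.41 ± 0.21 (SE, 95% interval -0.86 to 0.03, edgeR adjusted p = 0.231). Without day 7 mouse 3 it was -0.70 with an edgeR adjusted p of 0.00283, which passes the threshold, and without day 7 mouse 1 it was -0.25 (edgeR adjusted p = 0.419).

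*Xbp1* (chr11:5470606-5483027) itself encodes the factor whose targets the group is named for. Its level was 34.2, 24.6 and 27.4 CPM at day 5 and 46.4, 63.2 and 24.97 CPM at day 7. Mice 1 and 2 were above all day 5 libraries and mouse 3 was among them. The mean was 28.7 ± 4.96 CPM at day 5 and 44.9 ± 19.2 CPM at day 7 (SD, n = 3). The log2 fold change of *Xbp1*, 0.65 ± 0.29 (SE, 95% interval 0.05 to 1.25, edgeR adjusted p = 0.154), stayed short of the threshold. Without day 7 mouse 3 it was 0.93 with an edgeR adjusted p of 0.00448, and without day 7 mouse 2 it was 0.32 (edgeR adjusted p = 0.560). The change of *Xbp1* within a mouse, as the log2 ratio of day 7 to day 5, was 0.44, 1.36 and -0.13 in mice 1, 2 and 3.

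The target *Dnajb9* (chr12:44252341-44257171) encodes ERdj4, a J-domain partner of BiP and a well known target of XBP1. It had few reads, 14, 20 and 20 counts at day 5 and 47, 46 and 22 counts at day 7. These were 5.78, 10.0 and 7.21 CPM, then 18.0, 15.97 and 10.8 CPM. Every day 7 library lay above every day 5 library, although the gap between day 5 mouse 2 and day 7 mouse 3 was within counting error (95% Poisson intervals 6.13 to 15.5 and 6.75 to 16.3 CPM). The log2 fold change of *Dnajb9*, at 0.98 ± 0.33 (SE, 95% interval 0.29 to 1.67), was the highest of the 10 genes, with an edgeR adjusted p of 0.0583. With the mouse as a block it was 0.96 with an edgeR adjusted p of 0.0321, and over the alternatives that kept all 6 libraries the adjusted p ran from 0.0321 to 0.345. Day 7 was higher than day 5 in 3 of 3 mice.

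*Pdia4* (chr6:47770077-47790462) encodes ERp72, a protein disulfide isomerase. It stood at 73.8, 56.2 and 69.5 CPM at day 5 and at 92.8, 77.8 and 147.4 CPM at day 7. It was higher at day 7 in 3 of 3 mice, with mouse 3 far above the other two. The log2 fold change of *Pdia4* was 0.66 ± 0.24 (SE, 95% interval 0.17 to 1.16, edgeR adjusted p = 0.0744). With the mouse as a block it was 0.63 (edgeR adjusted p = 0.0491), and without day 7 mouse 3 it was 0.35 (edgeR adjusted p = 0.162). Over the alternatives with all libraries the adjusted p ran from 0.0257 to 0.629. The microRNA gene Mir704 lies within *Pdia4* on the same strand.

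*Sdf2l1* (chr16:16948002-16950252) encodes a small partner of the BiP complex and is strongly induced under stress in many cells. Its counts were low, 30, 23 and 27 at day 5 and 24, 10 and 18 at day 7, or 12.4, 11.5 and 9.73 CPM, then 9.21, 3.47 and 8.81 CPM. All day 7 libraries lay below all day 5 libraries, although mice 1 and 3 did so by less than counting error. On the log2 scale the change was -0.66 ± 0.37 (SE, 95% interval -1.44 to 0.11, edgeR adjusted p = 0.271). It was -0.31 without day 7 mouse 2 and -0.92 without day 7 mouse 1.

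*Creld2* (chr15:88703795-88710890) encodes a secreted stress-induced protein with disulfide isomerase activity. It was at 15.3, 9.54 and 10.8 CPM at day 5 and at 9.59, 7.99 and 16.2 CPM at day 7, from 19 to 37 counts. Mouse 1 was highest at day 5 and mouse 3 was highest at day 7. For *Creld2* the log2 fold change was -0.11 ± 0.34 (SE, 95% interval -0.81 to 0.60, edgeR adjusted p = 0.882). The interval holds a fall of the threshold size but no rise of that size.

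*Manf* (chr9:106715511-106769727) encodes a secreted factor that is kept in the endoplasmic reticulum until stress releases it. It measured 55.7, 45.7 and 50.1 CPM at day 5 and 50.6, 50.7 and 24.5 CPM at day 7. Only day 7 mouse 3 stood apart, and its counting interval (18.2 to 32.3 CPM) lay below those of mice 1 and 2 (42.4 to 60.0 and 42.8 to 59.6 CPM). Its log2 fold change was -0.26 ± 0.26 (SE, 95% interval -0.79 to 0.28, edgeR adjusted p = 0.567) and was 0.0018 without this library. Exons of *Manf* overlap those of Rbm15b on the same strand.

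*Herpud1* (chr8:95113022-95123141) encodes a membrane protein that takes misfolded proteins towards degradation. It had the smallest spread within each day of the 10 genes, at 115.5, 114.5 and 109.5 CPM at day 5 and 118.9, 139.2 and 116.5 CPM at day 7. The days did not overlap, but the step between them was small, 0.14 ± 0.19 on the log2 scale (SE, 95% interval -0.25 to 0.53, edgeR adjusted p = 0.677).

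**Figure D3:**
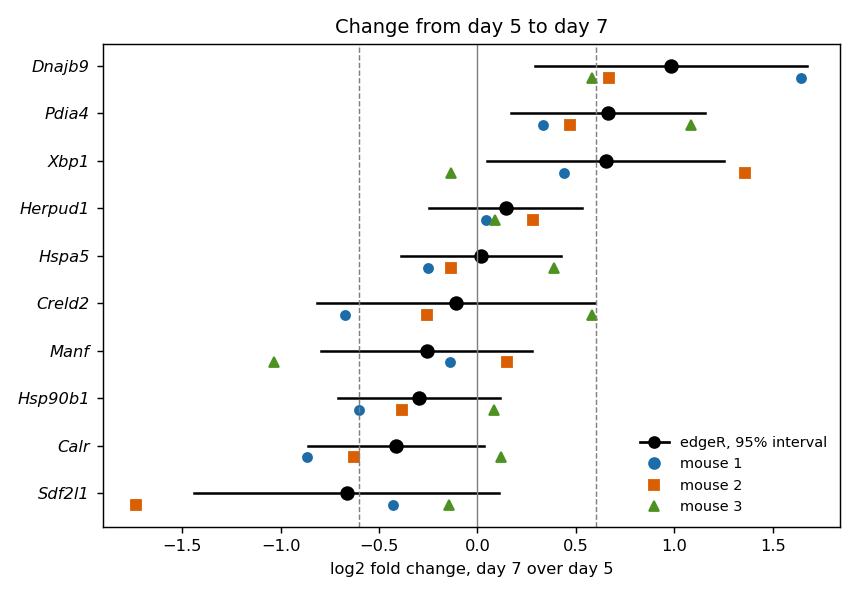
Black points are the log2 fold changes of edgeR (x axis, day 7 over day 5) with their 95% intervals, and coloured symbols are the log2 ratios within mouse 1 (circles), mouse 2 (squares) and mouse 3 (triangles). Dashed lines stand at -0.6 and 0.6. The intervals of *Dnajb9*, *Pdia4* and *Xbp1* lie above 0 and the other 7 include 0.

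The spread among the day 7 mice ran in opposite directions for different genes. Over the 9 genes whose mean reached 10 CPM, the highest mouse stood a median of 1.28 times above the lowest at day 5 and 1.78 times (1.19 to 2.53) at day 7. Relative to the mean of mice 1 and 2, day 7 mouse 3 was at 1.84 for *Creld2*, 1.73 for *Pdia4*, 1.66 for *Calr*, 1.37 for *Hspa5* and 1.34 for *Hsp90b1*. It had the highest level of the day for these 5 genes (55.6% of the 9) and the lowest for 4 (44.4%). Among all 8151 genes these shares were 42.7% and 39.0%. The ratio was 1.39 for *Sdf2l1*, where mouse 2 was the low library and mouse 1 the highest. The same library was at 0.456 for *Xbp1*, 0.483 for *Manf*, 0.634 for *Dnajb9* and 0.903 for *Herpud1*, and it had the lowest level for each. Over all 8151 genes this ratio spanned, from the 10th to the 90th percentile, 0.498 to 1.67 among day 7 libraries and 0.828 to 1.24 among day 5 libraries.

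The 4 genes with a stress element in the printed promoters, *Hspa5*, *Hsp90b1*, *Creld2* and *Calr*, were each highest at day 7 in mouse 3, as was *Pdia4*, whose window held none. *Herpud1*, with the second form, was not. This grouping was noticed after the values were seen and rests on 1 library, which was the highest of day 7 for 42.7% of the 8151 genes. For *Creld2* the lead of mouse 3 over mouse 1 at day 7 was within counting error (95% Poisson intervals 11.1 to 22.7 and 6.21 to 14.2 CPM). The summed level of the 10 genes was 2638, 2456 and 2334 CPM at day 5 and 1924, 2055 and 2720 CPM at day 7. Most of this sum came from *Hspa5*, *Hsp90b1* and *Calr*, so it says little about the other genes. In bulk libraries, fewer cells of a type and less RNA per cell cannot be told apart.

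**Figure D4:**
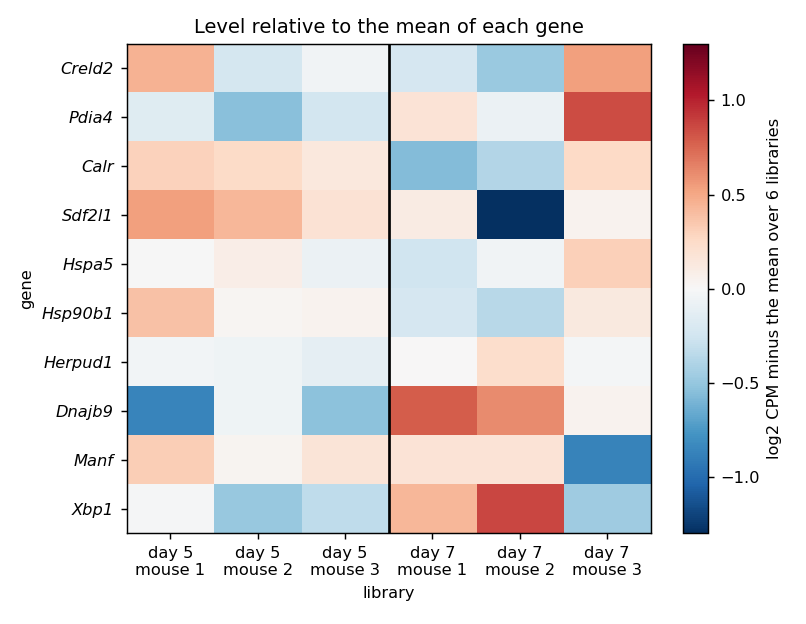
Colours give log2 CPM minus the mean of each gene over 6 libraries (red higher, blue lower), with libraries in columns, day 5 left of the black line, and genes ordered by the level of day 7 mouse 3 over the mean of mice 1 and 2. In the last column *Creld2*, *Pdia4*, *Calr*, *Hspa5* and *Hsp90b1* are red, whereas *Manf* and *Xbp1* are blue.

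Other genes of the pathway passed the threshold in both directions. Over 5 further lists of the endoplasmic reticulum, 108 of 112 genes were tested, with a median log2 fold change of -0.04. Of these 8 passed, where 3 rose and 5 fell. Among all genes tested 12.0% passed, 7.22% higher and 4.82% lower, and 25.8% had an unadjusted p under 0.05. These shares of all genes are the background for each list below. Among sensors and activators 1 of 11 tested genes rose, with a list median of 0.49. The gene was *Nfe2l1*, whose product NRF1 sits in the membrane of the compartment and raises proteasome genes. It went from 68.5, 53.2 and 52.2 CPM at day 5 to 98.6, 119.1 and 149.3 CPM at day 7 (log2 fold change 1.07 ± 0.21, SE, edgeR adjusted p = 0.00258). *Ern1*, which encodes IRE1, the enzyme that splices *Xbp1*, was at 5.36, 4.52 and 9.01 CPM, then 11.9, 7.99 and 13.7 CPM, and did not pass (0.78 ± 0.36, SE, edgeR adjusted p = 0.182). *Creb3l2*, a membrane-bound factor related to ATF6, was at 0.59 on the log2 scale (edgeR adjusted p = 0.179), short of the threshold. It passed without day 7 mouse 3 (0.76, edgeR adjusted p = 0.0328).

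Of 24 other folding enzymes and chaperones 2 rose and 2 fell, with a median log2 fold change of -0.22. *Ero1a*, the oxidase that recharges disulfide isomerases and that is also induced by low oxygen, rose from 42.5, 48.2 and 62.3 CPM to 334.1, 223.2 and 186.0 CPM. Its log2 fold change was 2.28 ± 0.24 (SE, edgeR adjusted p = 6.7e-06), with no overlap between the days. *Sil1*, which exchanges the nucleotide of BiP, rose from 17.3, 17.6 and 22.7 CPM to 31.1, 41.7 and 58.7 CPM (1.17 ± 0.27, SE, edgeR adjusted p = 0.00700). *Dnajb11*, another J-domain partner of BiP, fell from 65.2, 61.3 and 54.8 CPM to 39.1, 35.4 and 27.9 CPM (-0.82 ± 0.22, SE, edgeR adjusted p = 0.0185). Of these J-domain partners of BiP, *Dnajb9* was higher at day 7 in 3 of 3 mice and *Dnajb11* lower in 3 of 3. *Uggt1*, which tags misfolded glycoproteins so that calreticulin binds them again, fell as well (-0.72 ± 0.20, SE, edgeR adjusted p = 0.0258), and was named after its value was seen.

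None of 18 tested degradation genes passed the threshold with all libraries, by edgeR in either direction. An unadjusted p under 0.05 was found for 2 of them, against 25.8% of all genes. The nearest were *Herpud2*, a relative of *Herpud1*, at 0.66 on the log2 scale (edgeR adjusted p = 0.132), *Erlec1*, a lectin, at 0.62 (edgeR adjusted p = 0.186), and the ubiquitin-conjugating enzyme *Ube2j1* at 0.39 (edgeR adjusted p = 0.224). Of these, *Herpud2* passed without day 7 mouse 3 (0.88, edgeR adjusted p = 0.0096). In the list for entry and N-glycosylation 2 of 28 genes fell and 0 rose (edgeR, median log2 fold change -0.13). *Sec61b*, a subunit of the channel through which new chains enter, fell from 66.8, 69.3 and 62.0 CPM to 48.3, 39.9 and 23.5 CPM (-0.81 ± 0.24, SE, edgeR adjusted p = 0.0348). Without day 7 mouse 3 *Sec61b* was at -0.58, short of the fold threshold, and with DESeq2 its adjusted p was 0.0516. *Ostc*, of the oligosaccharyltransferase complex, also fell (-0.79 ± 0.21, SE, edgeR adjusted p = 0.0195). *Ssr1*, a part of the translocon-associated complex, stayed short of the fold threshold at -0.58. It passed without day 7 mouse 3 (-0.65, edgeR adjusted p = 0.0051). Among 27 transport genes the coat subunit *Sec13* fell (-0.81 ± 0.26, SE, edgeR adjusted p = 0.0492). This call was lost without day 7 mouse 3 (-0.56), with DESeq2 (adjusted p = 0.0824) and with filterByExpr (edgeR adjusted p = 0.0636). Neither *Tmed3*, a cargo receptor (0.77, edgeR adjusted p = 0.0580), nor *Lman1*, which carries glycoproteins (-0.58, edgeR adjusted p = 0.0633), passed. With the mouse as a block *Tmed3* passed too (0.76, edgeR adjusted p = 0.0457).

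Of the PERK and ATF4 branch, *Atf4* and 5 further genes rose. Over its 12 genes 6 rose and 0 fell (edgeR, 8 at an unadjusted p under 0.05), with a median log2 fold change of 0.68. *Atf4*, the factor itself, rose from 392.7, 490.0 and 456.5 CPM to 777.5, 1232 and 1604 CPM (1.43 ± 0.23, SE, edgeR adjusted p = 5.1e-04). *Sesn2*, a stress-induced brake on mTORC1, rose from 17.3, 23.1 and 28.1 CPM to 50.6, 77.4 and 86.2 CPM (1.64 ± 0.26, SE, edgeR adjusted p = 3.6e-04). The other 4 that rose were *Ddit3*, *Trib3*, *Chac1* and *Cebpb*, named after their values were seen. *Chac1* rests on 2 to 17 counts per library and missed the threshold with DESeq2 (adjusted p = 0.136). *Trib3* had 2, 8 and 5 counts at day 5 in mice 1, 2 and 3. With the mouse as a block 7 passed, the further gene being *Atf3*, which was lower (-0.78, edgeR adjusted p = 0.04998). ATF4 targets respond to amino acid shortage and other stresses as well as to PERK, and no difference between this list and the 10 genes was tested.

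In other compartments, 2 of 16 cytosolic and 2 of 8 mitochondrial genes passed the threshold, against 12.0% of all genes tested. Of 16 cytosolic heat shock genes 1 rose and 1 fell (median log2 fold change -0.17). The small heat shock protein *Hspb1* rose from 134.1, 148.1 and 130.4 CPM to 361.7, 539.5 and 283.0 CPM (1.52 ± 0.22, SE, edgeR adjusted p = 2.1e-04), and the J-domain protein *Dnaja1* fell (-0.62 ± 0.20, SE, edgeR adjusted p = 0.0443). *Dnaja1* was at -0.51 without day 7 mouse 3 and missed the threshold with DESeq2 (adjusted p = 0.0505). With the mouse as a block 3 passed, the further gene being *Hsph1*, which was lower (-0.67, edgeR adjusted p = 0.0414). Of 8 mitochondrial genes 2 fell and 0 rose (edgeR, 3 at an unadjusted p under 0.05, median -0.31). These were the chaperonin *Hspd1* (-0.89 ± 0.18, SE, edgeR adjusted p = 0.00341) and the protease subunit *Clpp* (-0.99 ± 0.27, SE, edgeR adjusted p = 0.0228).

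**Figure D5:**
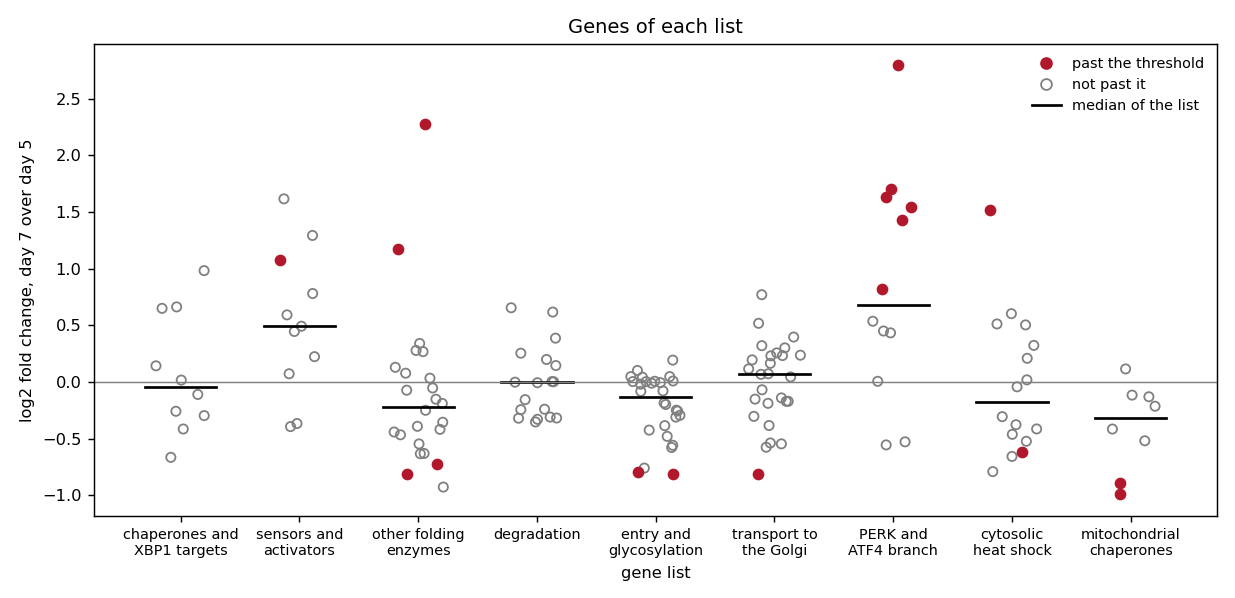
Each point is the log2 fold change of 1 gene (y axis, day 7 over day 5), red where it passed the threshold, with the median of each list as a black bar. The chaperones and XBP1 targets at the left hold no red point, and 6 of the 12 genes of the PERK and ATF4 branch are red above 0.

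Among genes outside these endoplasmic reticulum lists whose mean reached 20 CPM (6010 genes), those whose level followed the mean of the 10 genes most closely over the 6 libraries were *Trio* (Pearson r = 0.976), *Ascc3* (0.947), *Snx10* (0.944), *Arhgef28* (0.942), *Bltp1* (0.940) and *Arl6ip6* (0.936). *Trio* was at 49.9, 38.2 and 38.2 CPM at day 5 and 48.3, 40.3 and 50.4 CPM at day 7. The mean followed here varied little, from -0.08 to 0.09 on the centred log2 scale, so the likeness describes small differences between 6 libraries of 1 culture system that differ in depth.

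Markers of cells with a large endoplasmic reticulum were looked up beside these values. Of 11 acinar and secretory markers with an ID 8 had a count, with a summed level of 52.7 to 84.9 CPM at day 5 and 67.2 to 199.6 CPM at day 7, and *Prol1*, *Bpifa2* and *Dcpp1* were at 0 throughout. *Pip*, a secreted salivary protein, went from 3 to 46 counts (log2 fold change 3.73, edgeR adjusted p = 0.0143). It was the only 1 of 6 tested markers past the threshold (12.0% of all genes), and 3 passed with the mouse as a block (14.8% of all genes). *Amy1* went from 15 to 6 counts (-1.32, edgeR adjusted p = 0.288). The transporter *Slc12a2* held 393 of the 526 acinar counts at day 5 and 738 of 1005 at day 7 (0.92, edgeR adjusted p = 0.0586). *Bhlha15*, which encodes the secretory cell factor MIST1, had 1 count on each day. Of 10 plasma cell markers *Jchain*, *Mzb1* and the immunoglobulin genes *Igkc*, *Ighm* and *Igha* were at 0, together with *Tnfrsf17*, *Irf4* and *Cd79a*. The remaining *Sdc1* and *Prdm1*, which epithelium also expresses, summed to 384.2 to 405.2 CPM at day 5 and 457.2 to 569.8 CPM at day 7. *Prdm1*, which encodes the factor BLIMP1, went from 2 to 107 counts (log2 fold change 5.39, edgeR adjusted p = 6.4e-04). Of the macrophage, endothelial and fibroblast markers, 3 of 12, 7 of 10 and 8 of 12 had a count, with summed levels of at most 6.499, 4.34 and 25.7 CPM in any library. At day 5 and day 7 these ranges were 0.377 to 1.67 and 3.61 to 6.499 CPM for macrophages, 0.836 to 3.13 and 1.06 to 4.34 CPM for endothelium, and 10.5 to 17.7 and 23.2 to 25.7 CPM for fibroblasts. *Fbln1* alone held 98 of the 102 fibroblast counts at day 5 and 169 of 191 at day 7 (log2 fold change 0.71, edgeR adjusted p = 0.101). *Cd68*, a lysosomal protein, went from 7 to 39 counts (2.36, edgeR adjusted p = 0.0151). *Csf1r*, *Lyz2*, *Cdh5*, *Col1a2* and *Col3a1* were at 0. The part of these markers in the values above was not tested.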

How the data were processed

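RNA was extracted from mSGOs, and libraries were made with the Lexogen QuantSeq 3′ mRNA-Seq kit. The authors aligned the reads to GRCm39 and deposited whole-number read counts per Ensembl gene ID, not normalised. The aligner, the annotation, the strand setting and the treatment of multiply aligned reads are not given in the sources used here. The 5 entries per file that name no gene were left out (13.7% to 14.4% of reads at day 5, 9.12% to 9.74% at day 7). Names and positions came from GENCODE vM39, which matched 43465 of 47643 IDs.

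Genes counted (minimum 1) in 2 or more libraries were tested with edgeR 4.0.16 in R 4.3.3 (TMM, glmQLFit, glmQLFTest, day only, two-sided), with Benjamini-Hochberg adjustment over all genes. The study's methods name edgeR, this filter and the thresholds, and the other settings were chosen here. CPM give counts per 1000000 of the TMM-scaled library. SEs were taken from the F statistic. Intervals of counts are exact Poisson, at 95%, and cover counting error only. The last 500 bases of each member transcript matched no other gene over at least 100 bases at 95% identity or more. On the opposite strand, exons overlap those of Rabepk for *Hspa5*, Ccdc117 for *Xbp1* and Dcaf1 for *Manf*, among others. The part of such overlaps in the counts was not tested. Promoters came from a RefSeq table of GRCm38.p6 and were placed in GRCm39 by exact match.

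Same-numbered libraries come from the same mouse per the labels. Their deviations from the day mean correlated at 0.14, -0.10 and 0.17. The alternatives were other scalings, DESeq2 1.42.0, other filters and thresholds, the mouse as a block and each library left out. Named genes were all 10 members, the 3 genes of each further list with the smallest p (2 for the PERK, cytosolic and mitochondrial lists) and the 6 most correlated genes. *Uggt1*, *Ddit3*, *Trib3*, *Chac1*, *Cebpb*, *Atf3*, *Hsph1* and single cell type markers were named after their values were seen. The members and lists were chosen with earlier results of these data known.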

Additional observations from a re-analysis of the deposited data

How the results depend on the processing

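The count of members past the threshold was 0 with DESeq2 1.42.0, size factors of DESeq2, upper quartile scaling, library totals, filterByExpr, robust = TRUE, glmTreat, and a minimum log2 fold change of none or 1. It was 2 with no filter and 2 with the replicate block for the mouse (*Dnajb9* and *Pdia4* in both), and 0 to 3 with single libraries left out. The count over the 5 other endoplasmic reticulum lists, 8, was 6 with DESeq2, 7 with filterByExpr, 1 with glmTreat (*Ero1a*), 3 with a minimum log2 fold change of 1, 9 with the replicate block, and 2 to 15 with single libraries left out. *Ero1a* and *Nfe2l1* passed without any 1 library. It was 2 without day 5 replicate 1 or 2, 3 without day 5 replicate 3 or day 7 replicate 2, 15 without day 7 replicate 1 and 12 without day 7 replicate 3. With single libraries left out, *Atf4*, *Sesn2*, *Ddit3*, *Trib3*, *Hspb1* and *Hspd1* also stayed past the threshold, whereas *Sil1*, *Dnajb11*, *Uggt1*, *Sec61b*, *Ostc*, *Sec13*, *Chac1*, *Cebpb*, *Dnaja1* and *Clpp* each lost the call at least once. The cause was not tested, although leaving out a library also leaves fewer samples. *Hspa5* turned to -0.0203 with upper quartile scaling, -0.0763 with library totals and -0.0002 with the replicate block, and ran from -0.15 to 0.14 with libraries left out. *Creld2* ran from -0.44 to 0.11 and *Manf* from -0.41 to 0.0018. Of 170 member values under an alternative 8 changed sign, 8 newly passed the threshold and 154 did neither. The 170 include values whose outcome was fixed. The other minimum folds, robust = TRUE and glmTreat kept the log2 fold changes of the main fit, so no sign could change there. No member had an adjusted p under 0.05 in the main fit, so the other minimum folds and glmTreat could add no call. The replicate block changed no call among the members except those of *Dnajb9* and *Pdia4*. *Dnajb9*, *Sdf2l1* and *Creld2* rest on 10 to 47 counts per library, which limits what they can show.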
